A study of Mus musculus with 10 samples.

Results

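Metallothionein 1 and metallothionein 2 (Mt1 and Mt2) are zinc-binding proteins, and the other genes described here serve the same metal. They are Mtf1, the metal-responsive transcription factor, Slc30a1, the zinc exporter ZnT1, and Slc39a14, the importer ZIP14. These 5 genes, of 19057 on the array, were read by 8 probes of 45281, found by the gene symbol in the platform annotation. They were chosen from earlier results of these same arrays, among them the bilayer against monolayer values described below. Values of the 5 genes are therefore given as descriptions with standard errors (SE) and without p-values, and support nothing by themselves. The question was which of these genes stood at a different level when adipocytes and macrophages shared a culture, and where the lines differed when grown alone.

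3T3-L1 cells, a mouse embryonic fibroblast line, were turned into adipocytes with 0.5 mM IBMX, 1 µM dexamethasone and 10 µg/mL insulin, then reseeded on day 8. RAW 264.7 cells, a mouse macrophage line grown from ascites of a tumour-bearing animal, were seeded on a polycarbonate membrane with pores of 0.4 µm. After 18 h of attachment the 2 lines were combined for 24 h in the bilayer dishes, with macrophages on the upper side. The pores let through what the cells secreted and kept the cells apart, while monolayer dishes held 1 line alone. Adipocytes gave 3 samples in each condition and macrophages 2, each sample a pool of 5 dishes on 1 Illumina bead array. The labels do not say whether monolayer dishes held an insert or the same volume of medium. Each line is a single established line, and no label says that the samples of a group came from separate cultures, so the spread between samples may be technical.

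Metallothioneins are small cysteine-rich proteins that hold zinc and copper and buffer the free metal in the cell. When free zinc rises, the zinc finger factor MTF1 enters the nucleus and binds metal response elements in the promoters of metallothionein genes and of Slc30a1, whose product carries zinc out across the plasma membrane. Metallothionein genes are also known to respond to glucocorticoids, to interleukin-6 through STAT3 and to oxidative stress, and Slc39a14, which carries zinc, iron and manganese into the cell, to interleukin-6 in liver.

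The promoters of the genes whose values carry the results are shown because they hold the letters to which MTF1 is known to bind. Each is the stretch from 250 bases before to 50 bases after 1 start site per gene, from RefSeq on GRCm38.p6, plus strand, and 4 of the 5 genes had one. Capitals mark the core of the metal response element, TGCACNC or TGCGCNC, read on either strand. The Mt1 window is chr8:94178839-94179138, the Mt2 window chr8:94172368-94172667 and the Slc30a1 window chr1:191906531-191906830.

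Mt1: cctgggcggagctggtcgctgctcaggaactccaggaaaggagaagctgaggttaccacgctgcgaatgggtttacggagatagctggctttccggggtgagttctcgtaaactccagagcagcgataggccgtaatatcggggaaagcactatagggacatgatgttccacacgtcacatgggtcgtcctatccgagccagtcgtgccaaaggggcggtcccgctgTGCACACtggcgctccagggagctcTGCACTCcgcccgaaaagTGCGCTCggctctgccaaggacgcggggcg

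Mt2: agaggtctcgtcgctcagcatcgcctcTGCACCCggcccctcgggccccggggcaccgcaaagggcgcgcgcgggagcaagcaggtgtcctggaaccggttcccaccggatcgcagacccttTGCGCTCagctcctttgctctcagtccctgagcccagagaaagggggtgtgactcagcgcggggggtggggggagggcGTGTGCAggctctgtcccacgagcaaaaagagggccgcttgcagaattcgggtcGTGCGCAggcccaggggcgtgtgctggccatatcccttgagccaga

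Slc30a1: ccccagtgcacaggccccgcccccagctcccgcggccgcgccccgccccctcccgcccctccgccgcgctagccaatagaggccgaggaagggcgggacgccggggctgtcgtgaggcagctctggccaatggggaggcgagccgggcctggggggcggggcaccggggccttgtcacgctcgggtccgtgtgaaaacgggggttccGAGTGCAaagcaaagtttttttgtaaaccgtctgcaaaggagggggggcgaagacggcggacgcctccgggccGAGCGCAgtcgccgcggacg

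The core matched 4 times in the Mt2 window, at positions -223 to -217, -128 to -122, -50 to -44 and 4 to 10, where 0 is the start site and the last 2 matches lie on the opposite strand. It matched 3 times in the Mt1 window, at -23 to -17, 2 to 8 and 20 to 26, and 2 times in that of Slc30a1, at -43 to -37 and 30 to 36, both on the opposite strand. Of 32851 mouse promoters of this length, 25.7% held at least 1 match, 7.11% held at least 2, 1.97% at least 3 and 0.517% at least 4. The Mtf1 promoter held 0 matches. The start site used for Mt1 lies 206 bases past the first base of the gene in the RefSeq table and that of Slc30a1 84 bases past it, so sequence around other starts was not searched. Elements before or after a window are missed, so the counts do not rank the genes. A match is a run of letters and not a measured binding site.

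Mt1 lies on chromosome 8 at 94178883 to 94180327 and Mt2 at 94172618 to 94173567 of GRCm38.p6, 5315 bases apart. Mtf1 spans 124802549 to 124849800 of chromosome 4, Slc30a1 191906697 to 191913248 of chromosome 1, and Slc39a14 70303467 to 70351452 of chromosome 14. Probe positions within the transcripts were not used here, and whether the Mt1 and Mt2 probes also bind the other transcript was not tested.

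All values below are the authors' deposited intensities, background-subtracted and normalized, on a linear scale. Differences are between group means of log2(intensity + 16), so folds of dim probes are understated. A probe was taken as above noise where it exceeded 10.9 units, and a gene was tested where its probe did so on at least 2 arrays of the line or lines compared. The brightest passing probe stood for its gene. The arrays had nearly the same distribution, with medians of 5.08 to 5.10 and 41.9% of probes above noise. Correlations between arrays were 0.988 to 0.991 within a group, 0.986 to 0.990 between the conditions of a line and 0.838 to 0.844 between lines. Macrophage markers (7 genes, such as Laptm5 and Adgre1) summed to between 8.91 and 41.1 units on the adipocyte monolayer arrays and to between 15.0 and 38.0 on the adipocyte bilayer arrays, against 63126 to 64731 on the macrophage arrays. In both adipocyte groups 5 of the 7 were never above noise, with Laptm5, Itgam, Adgre1 and Cd52 among them in each. Adipocyte markers (7 genes, such as Adipoq and Plin1) summed to between 83418 and 94567 on the adipocyte arrays. Their sum was 22.2 to 39.8 on the macrophage monolayer arrays and 3.89 to 12.96 on the macrophage bilayer arrays, where all 7 were never above noise.

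Both metallothionein probes read higher in adipocytes from the bilayer than in adipocytes grown alone. Mt2 stood at 77.1, 78.1 and 113 in the 3 monolayer samples and at 293, 370 and 247 in the 3 bilayer samples. All bilayer samples lay above all monolayer samples, with means of 303 ± 62.4 (SD, n = 3) and 89.5 ± 20.7 (SD, n = 3). The log2 difference was 1.60 (SE 0.16), or 3.02-fold, and ran from 1.45 to 1.75 as single arrays were left out. Each sample is RNA of many cells, so more RNA in every cell and a larger share of cells that make it cannot be told apart.

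Mt1, whose protein is the companion isoform, was bright in every sample. Adipocyte monolayer samples read 19812, 18378 and 20122, and bilayer samples 24703, 25963 and 26182. The groups did not overlap, the means being 19437 ± 930.3 (SD, n = 3) and 25616 ± 798 (SD, n = 3). The log2 difference was 0.40 (SE 0.06), or 1.32-fold, and ran from 0.36 to 0.42 as single arrays were left out. The Mt1 probe ranked between 68 and 88 among the 45281 probes on the adipocyte monolayer arrays and between 3 and 13 on the bilayer arrays, where it reached 86.1% to 95.8% of the brightest probe. The brightest probe of an array read 25468 to 29664, so the Mt1 probe lay near the top of the scale, and whether its difference was compressed there was not tested.

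In macrophages neither metallothionein separated the conditions. Mt2 read 149 and 164 alone against 159 and 219.8 in the bilayer, which overlap, with a log2 difference of 0.24 (SE 0.21). Leaving out the higher or the lower bilayer sample moved that difference to 0.02 or 0.45. Mt1 read 18764 and 21514 alone against 20231 and 20269 in the bilayer. Its log2 difference was 0.01 (SE 0.08) and turned to -0.087 without the first monolayer sample. The bilayer response of adipocytes exceeded that of macrophages by 1.36 (SE 0.26) on the log2 scale for Mt2 and by 0.39 (SE 0.10) for Mt1.

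**Figure D1:**
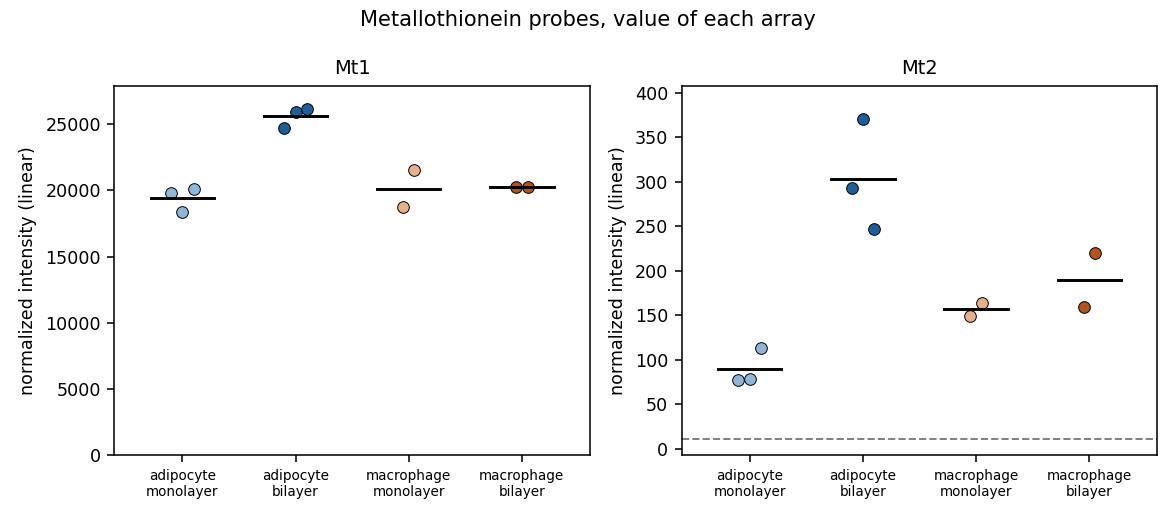
Deposited intensity (linear, each axis from about 0) of the Mt1 probe (left) and the Mt2 probe (right) on every array, by group. Points are samples, bars are group means and the dashed line at right is the noise level of 10.9. The 3 adipocyte bilayer samples lie above all other samples for both probes, and the macrophage groups overlap.

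The means of the 4 groups ran in the same order for both genes, and the overlap between neighbours differed. For Mt2 the order ran from adipocytes alone (mean 89.5) to macrophages alone (157 ± 10.8, SD, n = 2), macrophages in bilayer (189 ± 42.9, SD, n = 2) and adipocytes in bilayer (303). Only the 2 macrophage groups overlapped among these neighbours. For Mt1 the adipocyte monolayer mean of 19437 and the macrophage monolayer mean of 20139 ± 1944 (SD, n = 2) had overlapping samples, as had that macrophage group and the macrophage bilayer group at 20249.6 ± 26.7 (SD, n = 2). The adipocyte bilayer samples stood above all of them.

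Slc30a1, the exporter through which zinc leaves the cell, was set mainly apart by cell line. It read 89.9, 121 and 158 in adipocytes alone and 146, 133 and 177 in adipocytes from the bilayer. These ranges overlap, and the log2 difference of 0.29 (SE 0.15) ran from 0.11 to 0.47 as single arrays were left out. In macrophages it read 563 and 588 alone and 499 and 508 in the bilayer, lower in both bilayer samples by 0.19 on the log2 scale (SE 0.19). Adipocytes lay below macrophages in every sample, 4.34-fold in monolayer (log2 difference -2.12, SE 0.17) and 3.11-fold in bilayer (-1.64, SE 0.17).

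Mtf1, the factor that senses zinc, was read by 3 probes that disagreed. The brightest read 182, 153 and 170.2 in adipocytes alone and 123, 127 and 167 in the bilayer, which overlap (log2 difference -0.26, SE 0.12). In macrophages it read 287 and 307 alone and 348 and 335 in the bilayer, higher in both bilayer samples by 0.19 (SE 0.15). By this probe adipocytes lay below macrophages in all samples, with log2 differences of -0.77 (SE 0.13) in monolayer and -1.22 (SE 0.13) in bilayer. The dimmer probes read at most 54.4 on any array. In monolayer both read higher in every adipocyte sample than in the macrophage samples. One of them was above noise on none of the macrophage monolayer arrays, at least 1.16-fold higher in adipocytes, and the other differed by 0.46 on the log2 scale, also close to noise. The mean over all probes that passed the filter gave 0.035 in monolayer. The lower level in adipocytes is therefore that of the brightest probe alone.

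**Figure D2:**
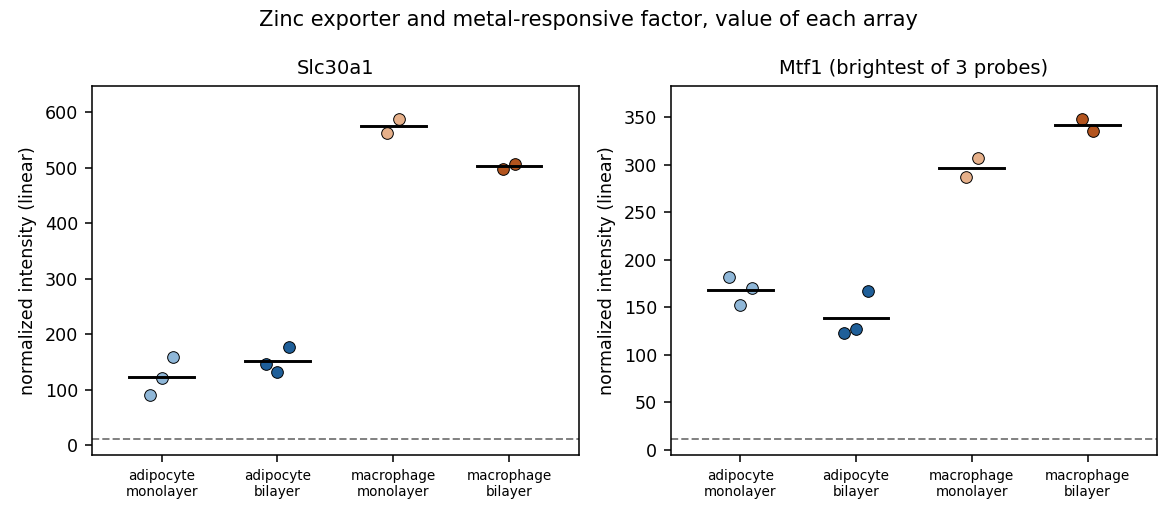
Deposited intensity (linear) of the Slc30a1 probe (left) and the brightest Mtf1 probe (right) on every array, by group. Points are samples, bars are group means and the dashed line is the noise level of 10.9. Macrophage samples read 499 to 588 for Slc30a1 against 89.9 to 177 in adipocytes, while the adipocyte groups overlap in both panels.

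Slc39a14, the importer, stayed near noise. Its first probe read 9.70, -0.18 and 8.94 in adipocytes alone, 7.05, 23.1 and 14.5 in adipocytes from the bilayer, 19.4 and 12.1 in macrophages alone, and 40.7 and 10.8 in macrophages from the bilayer. Its second read 0.13, 16.7 and 5.17, then 3.18, 26.2 and 16.6, then 9.46 and 10.2, then 19.5 and 16.8 in the same order. In adipocytes the conditions overlapped by both probes. The second probe, which stood for the gene there, gave a log2 difference of 0.41 (SE 0.32). The first was above noise on none of the monolayer and on 2 of the bilayer arrays. Its observed mean was at least 1.12-fold higher in the bilayer, though the bilayer sample at 7.05 lay below noise and below the monolayer samples at 9.70 and 8.94. In macrophages the second probe was at least 1.27-fold higher in the bilayer, while the first, which stood for the gene, gave 0.31 (SE 0.39) with overlap. Between the lines alone the first probe was at least 1.17-fold higher in macrophages. None of these levels was far enough above noise to rank the groups.

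**Figure D3:**
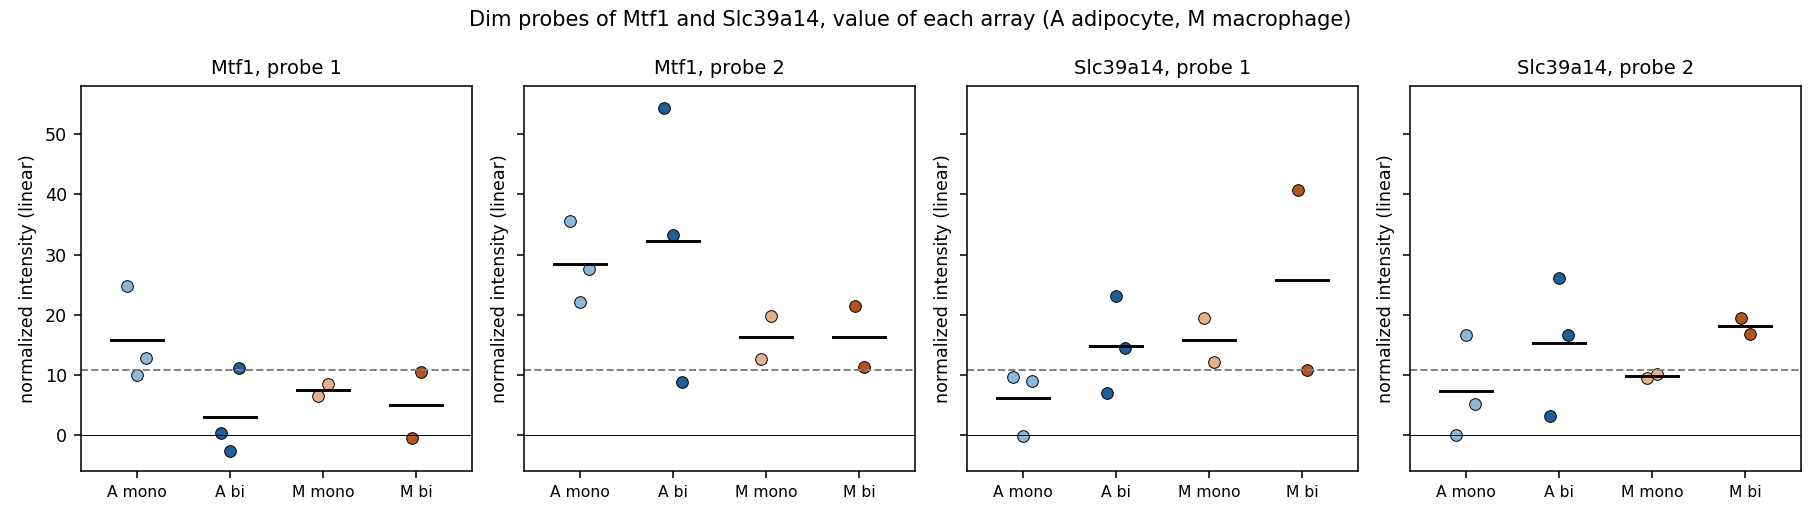
Deposited intensity (linear) of the 2 dimmer Mtf1 probes and both Slc39a14 probes on every array (A, adipocytes; M, macrophages; mono, monolayer; bi, bilayer). Points are samples, bars are group means and the dashed line is the noise level of 10.9. Most points lie within about 20 units of 0, and the highest are 54.4 for Mtf1 and 40.7 for Slc39a14.

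Across all tested genes, limma with Benjamini-Hochberg adjustment called 10.8% (1192 of 11037) in adipocytes, bilayer against monolayer, and 2 of the 5 genes, Mt1 and Mt2, were among the calls. In macrophages it called 0.668% (69 of 10326) and none of the 5. There 1124 genes had an unadjusted p under 0.05, and a fit of the macrophage arrays alone called 155. The difference between the 2 responses was called for 2.56% (316 of 12324), with Mt1 and Mt2 again among the calls, Mt1 only just inside the threshold. Whether the calls of the 5 genes hold under alternative settings was not tested. Between the lines the calls were 65.8% in monolayer, with 3 of the 5 (Mt2, Mtf1 and Slc30a1, all lower in adipocytes), and 66.3% in bilayer, with 4 of the 5 (Mt1 and Mt2 higher, Mtf1 and Slc30a1 lower). Mtf1 is counted there by its brightest probe only, and the mean of its probes gave 0.035 in monolayer. The 5 genes were chosen with these contrasts known, so nothing is read from their shares. The samples of 2 groups did not overlap for 28.7% of tested genes in adipocytes, 43.6% in macrophages, 75.3% between the lines in monolayer and 74.2% in bilayer, against 2, 2, 4 and 4 of the 5 genes. The comparisons between lines and between conditions share the same arrays.

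With the mean of each line removed, the log2 values of Mt1 and Mt2 correlated at 0.92 over the 10 arrays, and the other pairs among the 5 genes lay between -0.62 and 0.52. The order of the pairs depended on what was removed. With nothing removed Mtf1 and Slc30a1 stood at 0.90 and Mt1 and Mt2 at 0.83, and with the mean of each group removed Mt1 and Mtf1 stood at 0.56 and Mt1 and Mt2 at 0.30. Among 9311 other genes above noise in both lines, those most like Mt1 with the line means removed were Nectin2 (0.98), Itpk1 (0.97) and Parl (0.96). Nectin2, a cell adhesion protein, stood at 454 ± 48.5 and 809.7 ± 45.7 (SD, n = 3 each) in adipocytes alone and in bilayer and at 183 and 201 in macrophages. Those most like Mt2 were Atp10d, Gpr35 and C9orf72, at 0.98 to 0.99. Gpr35, a G protein-coupled receptor, was above noise in none of the adipocyte monolayer samples and stood at 53.1 ± 5.36 (SD, n = 3) in adipocyte bilayer, against 131 and 157 in macrophages alone and in bilayer. Those most like Slc30a1 were Abcc3, Dhx37 and Arap1 (0.96 each), and those most like Slc39a14 were Atf7, St3gal3 and Ylpm1 (0.89 to 0.94), the latter set against a probe near noise. The arrays fall into 4 groups and a high value was the basis of the choice, so these are descriptions with no test.

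Few other genes of zinc and copper handling passed the test between conditions. Of 41 further metal genes on the array (other metallothioneins, the Slc30 and Slc39 families, genes described as MTF1 targets and copper handling genes), 34 were tested in adipocytes. By limma 1 rose and 1 fell, which is 5.88% beside 10.8% of all genes, and the median log2 difference was -0.08 beside -0.01 over all genes. In macrophages 33 were tested and 1 rose, which is 3.03% beside 0.668%, with a median of -0.05 beside 0.00 over all genes. None of the other exporters passed (7 tested in adipocytes, 4 in macrophages), nor any other importer (10 and 11). Mt3 was not above noise often enough to be tested, and Mt4 differed by -0.08 (SE 0.45) in adipocytes and -0.34 (SE 0.59) in macrophages, neither past the test.

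The gene that rose in both lines was Ndrg1, described as an MTF1 target and known also as a hypoxia-responsive gene. It went from 75.6 ± 28.6 to 285 ± 46.1 (SD, n = 3 each) in adipocytes, a log2 difference of 1.76 (SE 0.18, limma adjusted p = 2.85e-06). In macrophages it went from 310.3 ± 4.69 to 1180 ± 99.4 (SD, n = 2 each), a difference of 1.87 (SE 0.23, limma adjusted p = 0.00173). That call was lost with no filter on dim probes (adjusted p = 0.0716) and without 3 of the 4 macrophage arrays in turn (0.0502 to 0.0850). The gene that fell was Cox19, a copper-binding factor for cytochrome oxidase assembly, from 1703 ± 54.9 to 1413 ± 53.8 (SD, n = 3 each) in adipocytes (log2 difference -0.27, SE 0.07, limma adjusted p = 0.0135). Its call was lost without an intensity trend (adjusted p = 0.0615) and without the first monolayer (0.0629) or the second bilayer sample (0.0531). Of the other tested genes described as MTF1 targets none passed in adipocytes. Selenow, at 401 and 484 alone and in bilayer, differed by 0.25 (SE 0.11) on the log2 scale. Gclc, Csrp1 and Slc39a10 differed by 0.54 (SE 0.24), -0.24 (SE 0.20) and -0.69 (SE 0.31). Their means lay near the noise level of 10.9: 14.3 and 27.3 for Gclc, 13.6 and 8.23 for Csrp1, and 23.2 and 7.02 for Slc39a10. The direction in which MTF1 acts on each gene was not considered.

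**Figure D4:**
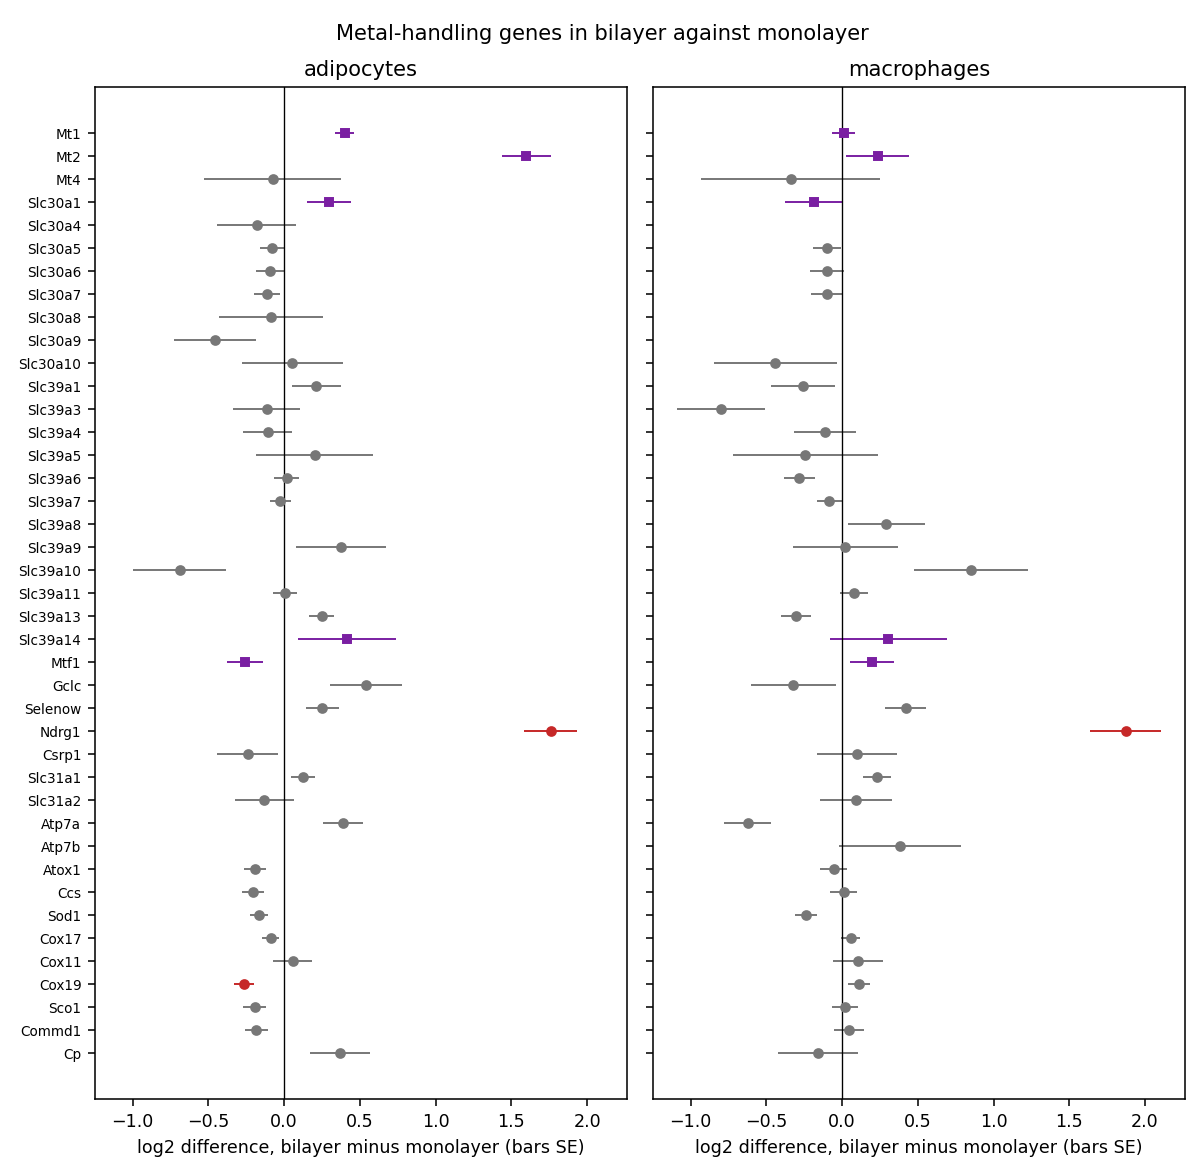
Log2 difference, bilayer minus monolayer, of metal-handling genes in adipocytes (left) and macrophages (right), with bars for 1 SE. Purple squares are the 5 genes described here, red circles are other genes past adjusted p 0.05 and grey circles did not pass, and a gene without a point was not tested in that line. Mt2 at 1.60 and Ndrg1 at 1.76 lie farthest right in adipocytes, and Ndrg1 at 1.87 in macrophages.

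For 2 metal transporters outside the 5 genes the difference between the responses of the lines passed the test. Atp7a, a copper-exporting ATPase, stood at 119 ± 17.2 and 160 ± 11.6 (SD, n = 3 each) in adipocytes alone and in bilayer, and at 149 ± 16.5 and 90.6 ± 1.18 (SD, n = 2 each) in macrophages. The difference of responses was 1.01 (SE 0.20, limma adjusted p = 0.0149), a call lost in 5 of 18 alternative settings. Slc39a13, the zinc transporter ZIP13, stood at 841 ± 59.7 and 1002 ± 55.9 (SD, n = 3 each) in adipocytes and at 275 ± 8.65 and 219 ± 18.5 (SD, n = 2 each) in macrophages, a difference of responses of 0.56 (SE 0.13, limma adjusted p = 0.0353). That call was lost in 13 of 18 alternative settings, with adjusted p up to 0.188. Within a line neither gene passed (limma adjusted p = 0.0693 and 0.0661 in adipocytes, 0.113 and 0.248 in macrophages). Of the 36 metal genes tested for this difference, these 2 passed, which is 5.56% beside 2.56% of all genes.

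Metal genes differed between the lines about as often as other genes did. In monolayer 21 of 36 tested metal genes passed, 9 higher and 12 lower in adipocytes, which is 58.3% beside 65.8% of all genes, and in bilayer 24 of 36 passed, or 66.7% beside 66.3%. These 36 include copper genes and MTF1 targets. Slc39a4, the importer ZIP4, read 12.2 ± 6.15 (SD, n = 3) in adipocytes alone and 1520 ± 32.0 (SD, n = 2) in macrophages alone (log2 difference -5.79, SE 0.18, limma adjusted p = 4.08e-13). Between the lines alone the log2 difference was -1.43 for the importer Slc39a6, 1.56 for Slc39a13 and -1.58 for the exporter Slc30a7, which loads the secretory pathway, each past the test. 

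Neighbours of the metallothionein genes were looked at after the values of Mt1 and Mt2 were known. Within 100 kb lie 4 other protein-coding genes, Mt3, Mt4, Bbs2 and Nup93, of which 3 were tested. In adipocytes Nup93, a nuclear pore protein whose gene starts 34.2 kb past Mt1, fell by 0.59 on the log2 scale (SE 0.09, limma adjusted p = 0.000341), against the direction of the metallothioneins. Bbs2 differed by 0.26 (SE 0.15, limma adjusted p = 0.291). In macrophages none of the 3 passed.

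Genes that mark signals known to act on metallothionein promoters were listed beside them, and several were already known to differ in these data, so their counts are not independent evidence. In adipocytes 6 of 7 tested interleukin-6 and STAT3 response genes rose, with a median log2 difference of 0.85, beside 10.8% of all tested genes called in either direction and a median of -0.01. Osmr, the oncostatin M receptor, rose by 1.86 (SE 0.13, limma adjusted p = 3.12e-08), from 336 to 1268, and Hp, the acute phase protein haptoglobin, by 1.76 (SE 0.10, limma adjusted p = 2.12e-09), from 3017 to 10291. Of 6 NRF2 response genes 2 rose beside that 10.8%, Hmox1, the haem-degrading enzyme, by 1.79 (SE 0.08, limma adjusted p = 1.26e-10) and Srxn1, which repairs peroxiredoxins, by 0.31 (SE 0.09, limma adjusted p = 0.0252). The call for Srxn1 was lost in 8 of 19 alternative settings.

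Of 6 hypoxia response genes 5 rose in adipocytes, again beside 10.8% of all genes called, among them Pdk1, a pyruvate dehydrogenase kinase, by 1.40 (SE 0.08, limma adjusted p = 2.12e-09) and Egln3, an oxygen-sensing prolyl hydroxylase, by 1.59 (SE 0.11, limma adjusted p = 5.40e-08). Of 6 glucocorticoid response genes 1 rose, the phosphatase gene Dusp1, by 0.63 (SE 0.16, limma adjusted p = 0.0152), a call lost in 6 of 19 alternative settings. In macrophages, where 0.668% of all tested genes were called, none of 5 glucocorticoid and none of 6 interleukin-6 genes passed, 1 of 5 NRF2 genes fell (Gclm, a subunit of the enzyme that starts glutathione synthesis, by 0.50, SE 0.09, limma adjusted p = 0.0165) and 1 of 2 hypoxia genes rose (Pdk1, by 0.59, SE 0.09, limma adjusted p = 0.00831). These macrophage calls were lost in 6 of 19 alternative settings for Gclm and 3 of 19 for Pdk1. Of the interleukin-6 genes Osmr lay closest to the threshold in macrophages, higher in the bilayer by 0.75 (SE 0.16, limma adjusted p = 0.0590). The part of any of these signals in the metallothionein values was not tested.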

How the data were processed

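Total RNA from both lines was hybridised as biotin-labelled copies to 10 Illumina mouse bead arrays, per the labels' protocols. The deposited values are linear probe intensities that the authors had background-subtracted and normalized, by a method not given in the sources used here. The submitters' processing notes list GenomeStudio 2011.1 without saying what it was used for. A further 20 value columns, which no label ties to a sample, were left aside, so neither slide nor detection p entered a test.

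Negative values were set to 0, and log2(intensity + 16) was modelled over the 10 arrays in 4 groups with limma 3.58.1 (R 4.3.3), using eBayes with a trend on intensity. P-values were two-sided and adjusted by Benjamini-Hochberg over all genes tested, with calls at 0.05. The noise level of 10.9 is the 99th percentile of the sizes of negative values. Genes were named by the platform annotation: 34885 probes had 1 symbol, and 18 with several and 10378 with none were left out. Where no array of a group was above noise, the fold is a lower bound (at least N-fold), taking for each such array the noise level or the probe's value, whichever was higher. Such a bound is on the observed group means and not on the true fold. The fit was also tried on simulated data, whose outcome is not given here, so no value reported rests on that trial.

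The 5 genes and all lists were chosen with earlier results of these data known. The text names the 5 genes, every other metal gene past the threshold in a bilayer comparison, of each signal list at most the 2 genes with the smallest p past it and the 3 genes most like each of Mt1, Mt2, Slc30a1 and Slc39a14. Single genes named for a difference between the lines, and the neighbouring genes, were picked after their values were seen. The alternatives tried were other pseudocounts, noise levels, normalization, probe choice and fits, a replicate block and each array left out.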

Additional observations from a re-analysis of the deposited data

Results flagged for a closer look

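By limma the bilayer response of adipocytes differed from that of macrophages for the metal genes Atp7a and Slc39a13, on the log2 scale. Mt1 and Mt2 were chosen with results of these data known, so their differences are given without p, as descriptions that support nothing by themselves. The difference was 1.36 (SE 0.26) for Mt2 and 0.39 (SE 0.10) for Mt1. It was 1.01 (SE 0.20, limma adjusted p = 0.0149) for Atp7a and 0.56 (SE 0.13, limma adjusted p = 0.0353) for Slc39a13. The Atp7a call was lost in 5 of 18 alternative settings and the Slc39a13 call in 13 of 18, with adjusted p up to 0.0881 and 0.188. No group held enough samples to look for a single sample far from the others.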

How the results depend on the processing

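Over 278 values of the differences of the 5 genes under alternative settings, 267 stayed within 1 residual SD of the gene's fit from the reported value. Many of these settings cannot move a difference, such as a fit without intensity trend or the omission of an array outside the comparison. The count is therefore no measure of how stable the differences are. With a pseudocount of 64 the Mt2 difference in adipocytes was 1.25, the difference of its responses 1.06 and the Slc30a1 difference between the lines in monolayer -1.79, and with a pseudocount of 1 Slc39a14 gave 1.34 in adipocytes and -1.79 between the lines. The mean of all probes turned Mtf1 between the lines in monolayer to 0.035. Leaving out each array in turn gave, for Mt1, -0.087 to 0.11 in macrophages (-0.087 without the first monolayer sample), 0.29 to 0.49 for the difference of responses and -0.15 to 0.050 between the lines in monolayer (0.050 without the second macrophage monolayer sample). For Slc39a14 in macrophages it gave -0.23 to 0.85, negative without the first bilayer sample. Slc39a14 had no value within either line at a noise level 2 times as high.

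Counts of called genes moved more. In adipocytes 1192 became 603 with no filter on dim probes, 604 with no intensity trend and 692 to 1153 with each array left out. In macrophages 69 became 155 in a fit of that line alone and 9 to 70 with each array left out. The difference of responses went from 316 to 106 with no filter, 80 with no trend and 97 to 318 with each array left out. Of the further metal genes in adipocytes 5 passed with a pseudocount of 64, 1 with no trend, 4 in a fit of that line alone and 1 to 4 with each array left out. In macrophages 0 passed with no filter, 3 in a fit of that line alone and 0 to 1 with each array left out. Adipocyte samples with the same replicate number correlated weakly, at 0.02 to 0.04, against -0.04 to 0.01 for samples with different numbers. In macrophages, with 2 samples a group, the values are mirror images (-0.02 and 0.02) and cannot show a pairing. Whether the replicate numbers pair the samples was not settled. A replicate block gave 1190 genes in adipocytes, 60 in macrophages and 309 for the difference, and Mt2 at 1.60 in adipocytes. It changed none of the calls whose adjusted p was followed over the alternatives. Calls of the 5 genes, the neighbouring genes and single genes named for a difference between the lines were not followed. Groups of 2 or 3 arrays and signal close to noise for Slc39a14 limit the precision.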
